A study of Rattus norvegicus with 6 samples.

Results

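The cathepsins examined here were the 10 genes of the deposited gene table whose name was Ctsa, Ctsb, Ctsc, Ctsd, Ctse, Ctsh, Ctsk, Ctsl, Ctss or Ctsz, out of 30957 genes listed. RNA was sequenced from the lumbar spinal cord on the side of the injected leg, 14 days after surgery, in 3 libraries of bone cancer pain (BCP) rats and 3 libraries of sham-operated rats. All rats were adult female Wistar rats. BCP rats had living Walker 256 cells, a rat mammary carcinoma line, placed in the marrow cavity of the left tibia, and sham-operated rats had the same surgery with heat-killed cells, so the comparison is between living and dead tumor cells. The tumor grew in the bone, the meninges had been stripped from the cord, and the sequencing libraries kept the strand and had ribosomal RNA removed. The labels give replicate numbers but not whether each library came from a separate animal, so the p-values measure the spread between these libraries.

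Cathepsins are the main proteases of lysosomes. Most of the family are cysteine proteases of the papain type (Ctsb, Ctsc, Ctsh, Ctsk, Ctsl, Ctss and Ctsz), Ctsd and Ctse are aspartic proteases, and Ctsa is a serine carboxypeptidase. They are made as inactive precursors, and most are carried to the lysosome by mannose 6-phosphate receptors or sortilin. The cysteine cathepsins are held in check outside the lysosome by cystatins. In the spinal cord microglia are a known source of cathepsin S, which remains active at neutral pH, is known to free the soluble chemokine domain of fractalkine from neurons, and in antigen-presenting cells trims the invariant chain of MHC class II.

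The libraries held 11779485 to 15004290 counts on genes. After edgeR's filter on low counts 14908 genes were tested, all 10 cathepsins among them. Markers of the labelled tissue were present, with all of the 7 oligodendrocyte, 9 neuron and 8 astrocyte genes of the marker lists tested. BCP library 1 stood apart from the other libraries in a few genes outside the family. Among them were the astrocyte gene Aqp4, with 28568 counts against 4637 to 5427 elsewhere, and the collagen gene Col1a1, with 995 against 250 to 485. Within the BCP group library 3 had the highest normalized count for 9 of the 10 cathepsins and library 1 the lowest for 8. Among sham libraries, library 3 was the lowest for 8 and library 2 the highest for 7. For Ctsk the BCP order was turned around, with library 1 the highest and library 3 the lowest.

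To show what the start sites of the family look like beside their changes, the promoter windows of 5 members are printed, 2 of them from the members with the largest rises (Ctsc and Ctsz), Ctss, and 2 from members that differed least between the groups (Ctsd and Ctsl). Windows are 300 bases long and come from RefSeq on the rat build GRCr8, which is not the build of the counts, and 9 of the 10 members had one. They were searched on both strands for CACGTG, the core of the CLEAR element bound by TFEB and its relatives at lysosomal genes, for GAGGAA, a core of sites of the myeloid factor PU.1 (gene Spi1), and for TTCNNNGAA, the GAS element of STAT factors. Capitals mark the matches, and TTCCTC is GAGGAA read from the other strand. The windows lie at chr1:151440799-151441098 on the plus strand for Ctsc, chr3:183653798-183654097 on the minus strand for Ctsz, chr2:185775146-185775445 on the plus strand for Ctss, chr1:206968772-206969071 on the minus strand for Ctsd and chr17:769854-770153 on the plus strand for Ctsl, and each is written along the strand of its gene.
Ctsc: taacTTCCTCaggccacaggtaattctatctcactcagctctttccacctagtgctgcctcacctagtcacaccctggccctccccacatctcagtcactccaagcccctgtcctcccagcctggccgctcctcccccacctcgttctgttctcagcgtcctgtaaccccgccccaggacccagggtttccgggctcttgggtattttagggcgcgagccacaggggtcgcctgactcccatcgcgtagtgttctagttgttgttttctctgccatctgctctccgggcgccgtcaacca
Ctsz: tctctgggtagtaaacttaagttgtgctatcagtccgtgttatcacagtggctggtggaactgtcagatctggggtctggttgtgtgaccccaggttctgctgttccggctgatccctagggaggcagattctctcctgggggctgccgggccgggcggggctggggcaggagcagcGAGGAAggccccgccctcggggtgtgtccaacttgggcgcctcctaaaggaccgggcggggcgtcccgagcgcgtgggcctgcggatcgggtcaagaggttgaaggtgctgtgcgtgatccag
Ctss: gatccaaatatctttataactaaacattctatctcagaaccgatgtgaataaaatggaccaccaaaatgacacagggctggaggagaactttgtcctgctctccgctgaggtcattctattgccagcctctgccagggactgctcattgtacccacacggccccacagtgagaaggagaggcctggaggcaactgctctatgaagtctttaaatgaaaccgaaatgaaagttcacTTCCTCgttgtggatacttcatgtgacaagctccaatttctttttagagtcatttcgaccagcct
Ctsd: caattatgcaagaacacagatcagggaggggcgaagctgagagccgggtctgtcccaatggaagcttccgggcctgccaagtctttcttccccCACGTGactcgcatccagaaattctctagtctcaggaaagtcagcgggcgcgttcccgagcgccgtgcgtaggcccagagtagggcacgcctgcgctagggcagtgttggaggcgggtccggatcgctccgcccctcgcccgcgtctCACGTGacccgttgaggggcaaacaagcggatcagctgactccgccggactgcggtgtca
Ctsl: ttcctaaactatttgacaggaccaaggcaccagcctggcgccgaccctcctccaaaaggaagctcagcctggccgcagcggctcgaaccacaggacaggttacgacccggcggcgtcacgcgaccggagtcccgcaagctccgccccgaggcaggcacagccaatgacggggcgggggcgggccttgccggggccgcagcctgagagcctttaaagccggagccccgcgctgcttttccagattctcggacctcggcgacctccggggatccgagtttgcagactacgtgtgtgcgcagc

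GAGGAA was found in 7 of the 9 windows, those of Ctsa, Ctsc, Ctse, Ctsh, Ctsk, Ctss and Ctsz, and in 27.6% of all 33469 rat promoter windows. In Ctss it lay 15 bases before the start, in Ctsz 73 and in Ctsc 246. CACGTG was found in the Ctsd window alone, at 157 and 10 bases before the start, and in 6.42% of all windows. No member window held TTCNNNGAA, which 8.87% of all windows held. The windows of Ctsd and Ctsl held no GAGGAA, although Ctsd was higher in BCP in the test described below (adjusted p = 0.0204, edgeR). Those of Ctsa and Ctsk held it, although these genes did not pass that test (adjusted p = 0.0862 and 0.104, edgeR). A match to these letters is a description of the window and not evidence that a factor bound there.

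Most of the family was higher in the BCP group. Of the 10 cathepsins 7 were up-regulated and 0 down-regulated with an adjusted p under 0.05 in edgeR's quasi-likelihood test, against 15.8% of all tested genes higher and 12.1% lower by the same rule. With a fold change over 2 in addition, 5 members were up-regulated (Ctsc, Ctsz, Ctsh, Ctse and Ctss), against 6.35% of all tested genes. No member had a log2 fold change below 0, and DESeq2 and limma also called 0 members lower. The median log2 fold change (log2FC, BCP over sham) of the 10 members was 1.01, and that of all tested genes was -0.01. The normalized counts of the groups overlapped for Ctsk and not for the other members. Ctsa and Ctsl were among those without overlap and did not pass the test (adjusted p = 0.0862 and 0.370, edgeR). How many of all tested genes had no overlap was not counted, so this is a description only. In whole tissue a larger number of cells of a type and more RNA per cell cannot be told apart.

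**Figure D1:**
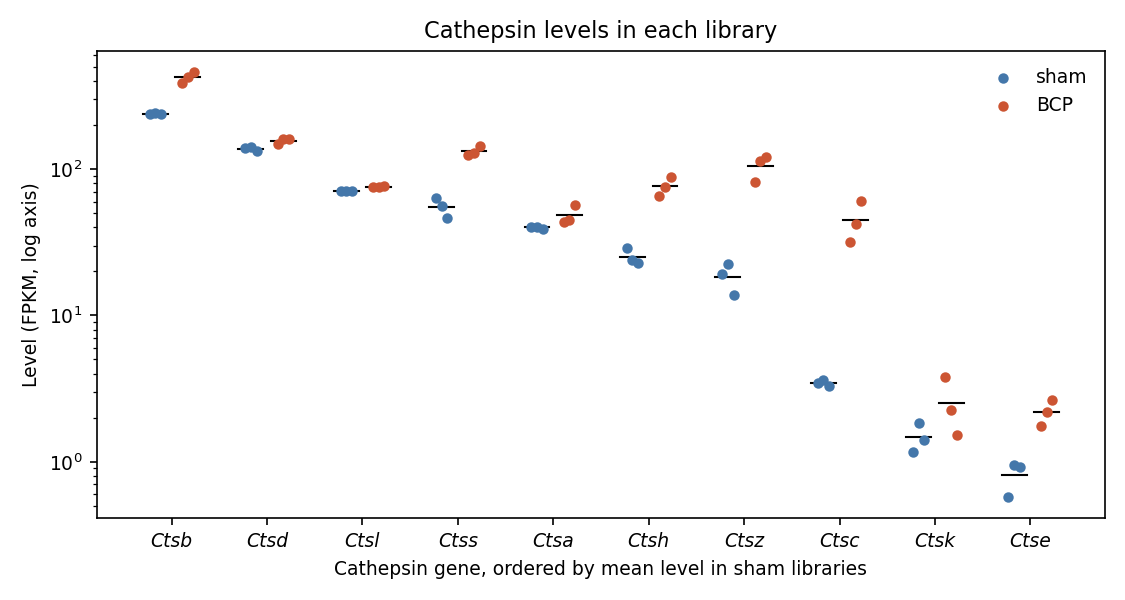
Level of each cathepsin gene in FPKM on a log axis, with 1 point per library (3 sham, 3 BCP) and a bar at the group mean. Ctsc, Ctsz, Ctsh and Ctss stand well above their sham libraries, Ctsl and Ctsd move little, and Ctsk overlaps between the groups.

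Ctsc (ENSRNOG00000016496, chr1:151918571-151949983, Rnor_6.0) encodes dipeptidyl peptidase I, which removes pairs of residues from the N-terminus and thereby activates granzymes and the serine proteases of neutrophils. It had 87, 98 and 92 counts in sham samples 1, 2 and 3, against 702, 1082 and 1464 in BCP samples 1, 2 and 3. Every BCP library lay far above every sham library, with little spread among sham libraries and a wider one among BCP libraries. Its FPKM, a level per transcript length, was 3.45 ± 0.170 in sham and 44.7 ± 14.4 in BCP libraries (SD, n = 3), a coefficient of variation of the normalized counts of 4.87% against 31.7%. The log2FC of 3.65 (SE 0.32) was the largest of the 10 members and corresponds to 12.6-fold (adjusted p = 0.00177, edgeR).

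Ctsz (ENSRNOG00000050697, chr3:172527107-172537877), also called cathepsin X, is a carboxypeptidase that takes single residues from the C-terminus. Its counts were 345, 438 and 282 in the sham group and 1311, 2112 and 2119 in the BCP group. The groups were clearly apart, with BCP library 1 the lowest of its group and sham library 3 the lowest of its own. The level rose from 18.4 ± 4.25 to 105 ± 20.4 FPKM (SD, n = 3), with a log2FC of 2.48 (SE 0.25, adjusted p = 0.00313, edgeR).

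Ctsh (ENSRNOG00000014064, chr8:97439161-97458287) acts mainly as an aminopeptidase. It had 919, 821 and 808 counts in the sham group and 1843, 2474 and 2704 in the BCP group. Again all BCP libraries were above all sham libraries. Its level was 25.2 ± 3.34 FPKM in sham and 76.5 ± 11.0 FPKM in BCP libraries (SD, n = 3), and its log2FC was 1.56 (SE 0.15, adjusted p = 0.00114, edgeR).

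Ctss (ENSRNOG00000021157, chr2:197655786-197679458) encodes cathepsin S. Its counts were 846, 805 and 690 in the sham group and 1452, 1764 and 1855 in the BCP group. The lowest BCP library exceeded the highest sham library. The level rose from 55.5 ± 8.76 to 133 ± 10.4 FPKM (SD, n = 3), and the log2FC of 1.22 (SE 0.12, adjusted p = 0.000278, edgeR) corresponds to 2.33-fold.

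Ctsb (ENSRNOG00000010331, chr15:46316741-46337612), an endopeptidase that also acts as a dipeptidyl carboxypeptidase, was the most abundant cathepsin in every library. It had 6199, 6785 and 6882 counts in the sham group and 8832, 11455 and 11606 in the BCP group. The sham libraries were almost equal once scaled to their totals, at 473, 474 and 465 CPM (counts scaled to a common library total with TMM), and the BCP libraries were at 747, 819 and 879. Its rise was smaller than 2-fold, with a log2FC of 0.79 (SE 0.05), but it had the smallest p-value of the family (adjusted p = 7.91e-10, edgeR). In FPKM the level went from 238.7 ± 2.46 to 425 ± 37.6 (SD, n = 3), a larger absolute increase than that of any other member.

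Ctsl (ENSRNOG00000018566, chr17:1872848-1879279), a broad lysosomal endopeptidase close to cathepsin S in its activity, had 1551, 1685 and 1737 counts in the sham group and 1450, 1708 and 1645 in the BCP group. Normalized, the sham libraries lay between 117 and 118 CPM and the BCP libraries between 122 and 125 CPM, so the groups did not overlap although they differed very little. The log2FC was 0.06 (SE 0.05, adjusted p = 0.370, edgeR), and its 95% interval reached from -0.04 to 0.16, below the interval of Ctsb, which began at 0.69. The contrast with Ctss was seen in each library. The log2 ratio of Ctss to Ctsl, formed from FPKM after the values had been seen, was -0.14, -0.33 and -0.60 in the sham group and 0.73, 0.78 and 0.90 in the BCP group. In FPKM Ctsl was thus above Ctss in the sham group and below it in the BCP group.

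Ctsk (ENSRNOG00000021155, chr2:196655469-196666446), the collagen-degrading cathepsin best known from osteoclasts, was scarce. It had 22, 38 and 30 counts in the sham group and 63, 44 and 28 in the BCP group. BCP library 3 lay within the range of the sham libraries, and only the other two were above it. The log2FC was 0.71 (SE 0.31, adjusted p = 0.104, edgeR). Without BCP library 3 it was 0.98 with an adjusted p of 0.0250, and without BCP library 1 it was 0.32 with an adjusted p of 0.500 (edgeR). BCP library 1, the highest for Ctsk, was also the highest for Col1a1. Of the other meningeal and fibroblast genes with counts, Dcn was at 9.05 CPM in BCP library 1 and 11.4 in BCP library 3. Pdgfra was at 107 and 111 CPM, and Lum at 4.23 and 4.16 CPM. The part of the tissue content of BCP library 1 in the Ctsk values was not tested.

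The aspartic cathepsins differed from each other. Ctsd (ENSRNOG00000020206, chr1:215541542-215553451), the main aspartic protease of lysosomes, had 3778, 4130 and 4008 counts in the sham group and 3562, 4437 and 4211 in the BCP group. Scaled to the library totals these were 271 to 288 CPM and 301 to 319 CPM, close but apart. The log2FC was 0.15 (SE 0.05, adjusted p = 0.0204, edgeR). The adjusted p was 0.123 without sham library 3, 0.0731 without BCP library 2, 0.0797 without BCP library 3 and 0.0739 with upper-quartile normalization (edgeR). It was 0.0304 without sham library 1, 0.0294 without sham library 2 and 0.00807 without BCP library 1 (edgeR).

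Ctse (ENSRNOG00000006963, chr13:48426820-48449490), an aspartic protease of endosomes found mainly in immune and epithelial cells, had the lowest mean level of the 10 members in both groups, although in BCP library 3 Ctsk was lower. It had 23, 41 and 41 counts in the sham group and 62, 90 and 102 in the BCP group. The lowest BCP library exceeded the highest sham library in counts and after scaling. The level rose from 0.815 ± 0.206 to 2.20 ± 0.438 FPKM (SD, n = 3), with a log2FC of 1.38 (SE 0.23, adjusted p = 0.000118, edgeR).

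Ctsa (ENSRNOG00000015857, chr3:161298962-161304625), the serine carboxypeptidase known as protective protein because it stabilizes neuraminidase and beta-galactosidase, had 1212, 1330 and 1335 counts in the sham group and 1158, 1398 and 1678 in the BCP group. The sham libraries were nearly equal at 90.2 to 92.9 CPM, and BCP library 3 stood off at 127 CPM from the other BCP libraries at 97.9 and 99.9 CPM. The log2FC was 0.24 (SE 0.09, adjusted p = 0.0862, edgeR). It passed the test without BCP library 1 (log2FC 0.31, adjusted p = 0.0181, edgeR) and with DESeq2 (adjusted p = 0.0301), and without BCP library 3 the log2FC was 0.11 (adjusted p = 0.234, edgeR).

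**Figure D2:**
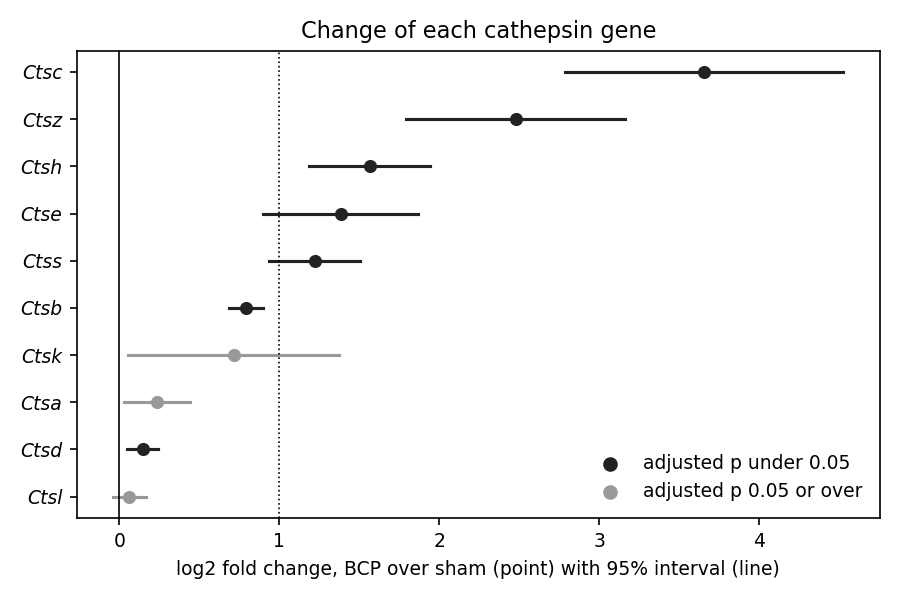
Log2 fold change of each cathepsin gene, BCP over sham, as a point with its 95% interval from the edgeR fit as a line, the dotted line marking a 2-fold change. The values run from 0.06 for Ctsl to 3.65 for Ctsc, and the 3 members in grey (Ctsk, Ctsa and Ctsl) had an adjusted p of 0.05 or over.

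The summed level of the 10 members in FPKM was higher in BCP libraries. FPKM is scaled by transcript length, so the sum is not a share of all RNA. The FPKM summed over the 10 members was 606, 602 and 567 in the sham group and 964, 1073 and 1174 in the BCP group, that is 592 ± 21.8 against 1070.2 ± 105 (SD, n = 3). Ctsb gave 39.0% of this difference, Ctsz 18.2%, Ctss 16.2%, Ctsh 10.7% and Ctsc 8.61%. Ctsc thus had the largest fold change but contributed less than Ctsb, whose fold change was below 2.

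The composition of the family shifted in FPKM. Ctsb kept 40.4% of the sum in the sham and 39.8% in the BCP group on average. The shares of Ctsd and Ctsl were lower in BCP libraries, at 14.7% against 23.3% and at 7.13% against 11.9%. The share of Ctsz was 9.78% against 3.10%, that of Ctsc 4.11% against 0.583%, that of Ctss 12.4% against 9.35% and that of Ctsh 7.13% against 4.25%. In the sham libraries the order of levels was Ctsb, Ctsd, Ctsl, Ctss, Ctsa, Ctsh, Ctsz, Ctsc, Ctsk and Ctse, with no overlap between neighbours. In the BCP libraries it was Ctsb, Ctsd, Ctss, Ctsz, Ctsh, Ctsl, Ctsa, Ctsc, Ctsk and Ctse, where Ctsz and Ctsh, Ctsh and Ctsl, Ctsa and Ctsc, and Ctsk and Ctse overlapped.

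**Figure D3:**
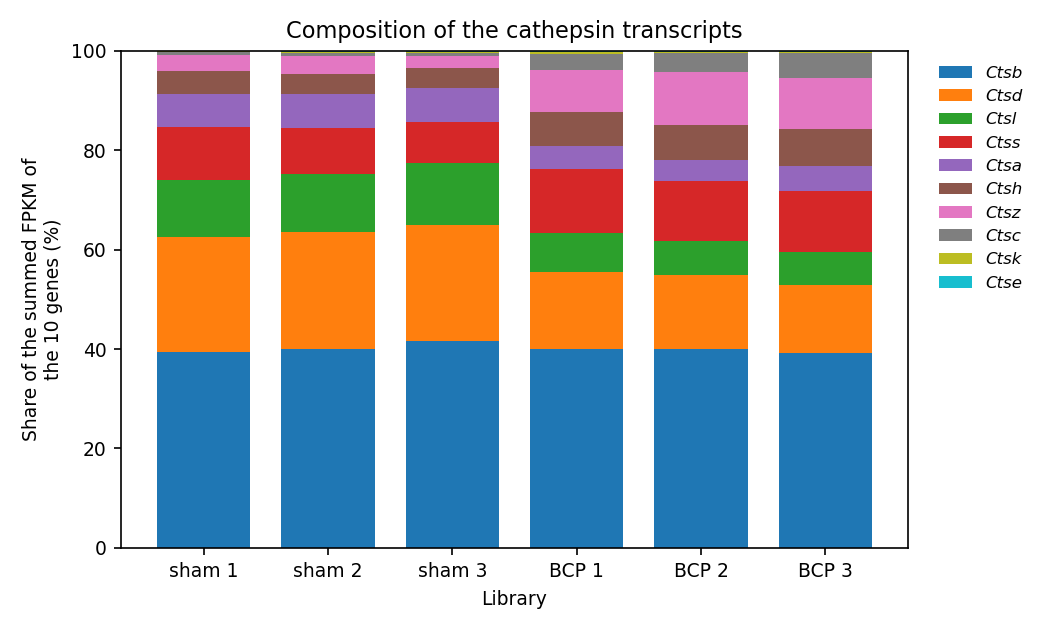
Share of each gene in the summed FPKM of the 10 cathepsins, in percent, 1 stacked bar per library. Ctsb holds about the same share in all libraries, while Ctsz and Ctsc widen and Ctsd and Ctsl narrow in the 3 BCP libraries.

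Several lists of immune cell markers were higher in the BCP group, while the oligodendrocyte list and part of the neuron and astrocyte lists were lower. The summed level of the microglia list was 434 to 542 CPM in the sham and 1194 to 1455 CPM in the BCP group, and 11 of its 16 tested genes were up-regulated, while Tmem119, Trem2, Olfml3 and Gpr34 were among those that did not pass the test and Siglech was at 0. The T cell list was at 6.08 to 6.77 CPM in sham and 52.7 to 60.7 CPM in BCP libraries, with 8 of 8 tested genes up-regulated. The list of MHC class II and dendritic cell genes was at 58.6 to 67.5 CPM against 1585 to 1733 CPM, with 7 of 8 tested genes up-regulated. The list of monocytes and macrophages was at 47.5 to 57.6 CPM against 429 to 642 CPM, of which Lyz2, with 447 to 574 counts in sham and 4902 to 8248 in BCP libraries, was the only one of 5 tested genes to pass. Ccr2, another gene of that list, was at 0 counts in every sham library and at 1 in each BCP library, too few to be tested. The neutrophil list was at 8.72 to 10.1 CPM against 29.3 to 34.0 CPM. Both of its tested genes passed, S100a8 with 1, 0 and 0 counts against 23, 15 and 10 and Csf3r, which gave most of the sum, with 130, 131 and 118 against 282, 412 and 421. Mpo and Elane were at 8 counts or fewer in any library. None of the B and plasma cell genes had enough counts to be tested, at a summed 1.29 CPM or less. All 7 oligodendrocyte genes were lower, with a summed level of 39153 to 44466 CPM in sham and 28140 to 31317 CPM in BCP libraries. Of 9 neuron genes 4 were lower and 0 higher, with summed levels of 9018 to 9207 CPM in sham and 7679 to 8522 CPM in BCP libraries. Of 8 astrocyte genes 4 were lower and 1, Gfap, higher. The summed level of the astrocyte list was higher, at 8300 to 8590 CPM in sham and 9192 to 11349 CPM in BCP libraries, with BCP library 1 the highest. Of 5 tested endothelial genes 1 was higher and 0 lower, and of 4 tested genes of meninges and fibroblasts and 2 of skeletal muscle 0 were called. The part of these cell types in the changes of the cathepsins was not tested.

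Relative to the summed CPM of the microglia list, a ratio chosen after the values had been seen and given without a test, the cathepsins spread in both directions. The mean log2 ratio was higher in BCP than in sham libraries by 2.21 for Ctsc and by 1.09 for Ctsz, and by 0.17 for Ctsh. For Ctse the difference was 0.02, with overlapping groups. It was -0.16 for Ctss and -0.60 for Ctsb, so these rose in CPM but less than the microglia list did. Ctsa, Ctsd and Ctsl, which changed little, stood at -1.17, -1.25 and -1.33, and Ctsk at -0.73 with overlapping groups.

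**Figure D4:**
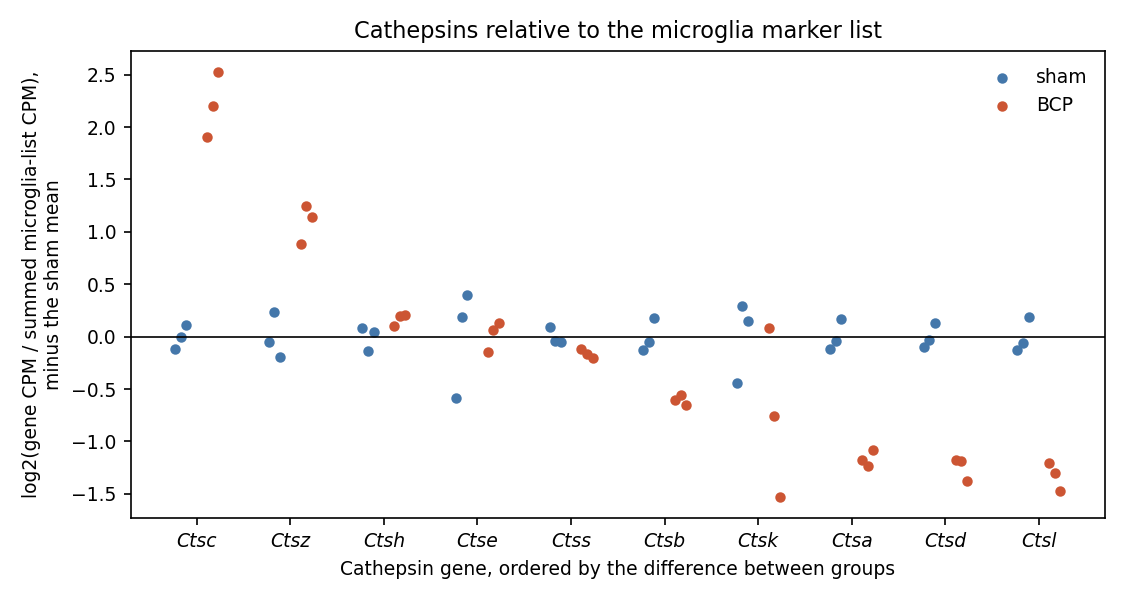
Log2 ratio of each cathepsin's CPM to the summed CPM of the microglia list, with the sham mean of each gene set to 0, 1 point per library. Ctsc and Ctsz lie above 0 in all BCP libraries, Ctsh, Ctse and Ctss lie near 0, and Ctsb, Ctsa, Ctsd and Ctsl lie below it.

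The list of osteoclast genes bears on Ctsk. Its summed level was 1.28 to 2.03 CPM in sham and 5.91 to 6.85 CPM in BCP libraries. Acp5, the tartrate-resistant acid phosphatase, had 9, 12 and 7 counts against 42, 39 and 33, and Ocstamp had 0, 0 and 1 against 31, 35 and 42, and both passed the test. Calcr, the calcitonin receptor, was not tested and lay the other way, with 17, 15 and 11 counts against 8, 10 and 3. Dcstamp was at 0 in every library, Atp6v0d2 had 2 counts in a single sham library and 0 elsewhere, and Ctsk itself did not pass.

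Of 12 further names 9 were found in the gene table and 2 could be tested. Ctsw, a cathepsin of T and natural killer cells, had 0, 3 and 0 counts in the sham group and 52, 57 and 99 in the BCP group (adjusted p = 4.23e-07, edgeR). Ctsf, a cysteine cathepsin broadly expressed in brain, went the other way, with 1397, 1558 and 1462 counts against 1122, 1265 and 1171 (log2FC -0.20, adjusted p = 0.0111, edgeR). Ctsg had 3 counts in a single sham library and 0 elsewhere, and Ctsj, Ctsm, Ctsq, Ctsr, Cts7 and Cts8, most of them known from rodent placenta, were at 0.

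The lists of inhibitors, partners, substrates and transcription factors were read in the same fit. The tested genes were 2 other cathepsins, 8 inhibitors, 12 genes of processing, sorting and partners, 9 of substrates and release and 8 transcription factors. Among them 22 genes passed an adjusted p under 0.05 as higher in BCP and 4 as lower. Of all tested genes 15.8% were higher and 12.1% lower, so the lower genes were no larger a share here than over all genes. The number of lower genes fell to 1 without sham library 2 and to 2 without BCP library 1 or BCP library 2. The number of higher genes stayed between 22 and 24 with any library left out.

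Of 8 tested inhibitors 4 were higher and 1 lower, with a median log2FC of 0.24. Cst3, cystatin C, the main secreted inhibitor of cysteine cathepsins, had 6332, 5743 and 6269 counts in the sham and 5450, 6268 and 6305 in the BCP group, and its log2FC of 0.08 did not pass the test (adjusted p = 0.329, edgeR). Cst7, cystatin F, a lysosomal inhibitor in immune cells that acts on Ctsc among others, had 0, 0 and 1 counts against 11, 16 and 18, and passed the test. Cstb, the cytosolic cystatin B, had a log2FC of 0.39 (adjusted p = 0.000223, edgeR). Serpinb1a and Serpinb9, inhibitors of neutrophil proteases and of granzyme B, had log2FC of 1.88 and 0.77 and passed, and Cst6, cystatin E/M, was lower by a log2FC of -0.75 (adjusted p = 0.0313, edgeR).

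Set against cystatin C, the rise of the cysteine cathepsins was much the same size as on its own. The log2 ratio of FPKM to Cst3 was higher in BCP libraries by 3.52 for Ctsc, 2.40 for Ctsz, 1.47 for Ctsh, 1.14 for Ctss and 0.70 for Ctsb, with no overlap between the groups. For Ctsk the difference was 0.57 and for Ctsl it was -0.02, both with overlapping groups. The Ctsk difference was 0.22 without BCP library 1, 0.34 without sham library 1 and 0.91 without BCP library 3. In an exact permutation test, two-sided, the 5 ratios that did not overlap had p = 0.1, the smallest that 3 against 3 libraries allow, or 0.14 adjusted over the 7 ratios, so none could pass 0.05. The p-values were 0.4 for Ctsk and 0.8 for Ctsl by the same exact test.

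Among the 12 genes of processing, sorting and partners, all tested, 6 were higher and 2 lower, with a median log2FC of 0.16. Lgmn, the legumain protease that matures several cathepsin precursors, had 2502, 2808 and 2680 counts in the sham and 3151, 4218 and 3950 in the BCP group (log2FC 0.61, adjusted p = 2.38e-08, edgeR). Of the sorting receptors, M6pr had a log2FC of 0.33 and was called, Igf2r of -0.13 and was not, and Sort1, sortilin, had -0.27 and was called lower. The enzymes that make the mannose 6-phosphate tag, Gnptab, Gnptg and Nagpa, lay between -0.23 and -0.01 and did not pass the test.

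The partners of Ctsa went apart. Glb1, beta-galactosidase, was higher by a log2FC of 0.41 (adjusted p = 0.000693, edgeR), and Neu1, neuraminidase, was lower by a log2FC of -0.27 (adjusted p = 0.0209, edgeR). Psap, the precursor of saposins that Ctsd cleaves, was higher by 0.62, Grn, progranulin, by 1.73 and Ifi30, a lysosomal thiol reductase of antigen processing, by 2.21 on the log2 scale, all past the test.

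Of 9 tested genes of substrates and release 7 were higher and 0 lower, with a median log2FC of 1.42. Cd74, the invariant chain that cathepsin S trims, had 122, 190 and 185 counts in the sham and 10344, 11440 and 11579 in the BCP group (log2FC 6.19, adjusted p = 3.16e-09, edgeR). This was a far larger fold than that of Ctss. Cx3cl1, fractalkine, had 1366, 1442 and 1638 counts against 1362, 1523 and 1462, and did not pass the test (log2FC 0.08, adjusted p = 0.274, edgeR). Its receptor Cx3cr1, which is also in the microglia list, had a log2FC of 1.42 and passed.

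P2rx7 and P2rx4, ATP-gated channels of microglia of which P2rx7 is known to trigger release of cathepsin S, had log2FC of 1.00 and 1.03 and passed. F2rl1, the protease-activated receptor PAR2 that cathepsin S can cleave, had 39, 20 and 46 counts against 23, 34 and 36 and did not pass (log2FC -0.07). Granzymes, which Ctsc activates, were nearly absent in sham libraries. Gzmb, for which only 1 of 2 rows of that name had counts, had 0, 0 and 1 counts against 14, 33 and 47, Gzmk had 0, 2 and 0 against 23, 27 and 46, and Gzmm had 8, 2 and 6 against 16, 23 and 15. All of these passed the test, whereas Gzma, Mpo and Elane were left out by the filter.

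Among 8 transcription factors of lysosomal and myeloid genes, all tested, 4 were higher and 0 lower, with a median log2FC of 1.91. Tfeb, Tfe3 and Mitf, which bind the CLEAR element, had log2FC of 0.11, 0.25 and 0.11 and did not pass the test. Tfec, of the same family, had 0, 1 and 1 counts in the sham and 60, 87 and 64 in the BCP group. It passed the test (adjusted p = 1.62e-09, edgeR). Spi1, which encodes PU.1, had 100, 96 and 84 counts in the sham and 391, 482 and 518 in the BCP group (log2FC 2.42, adjusted p = 6.91e-12, edgeR), and Irf8 had a log2FC of 2.97. Ciita, the activator of MHC class II genes, had 3, 2 and 1 counts against 448, 750 and 662.

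**Figure D5:**
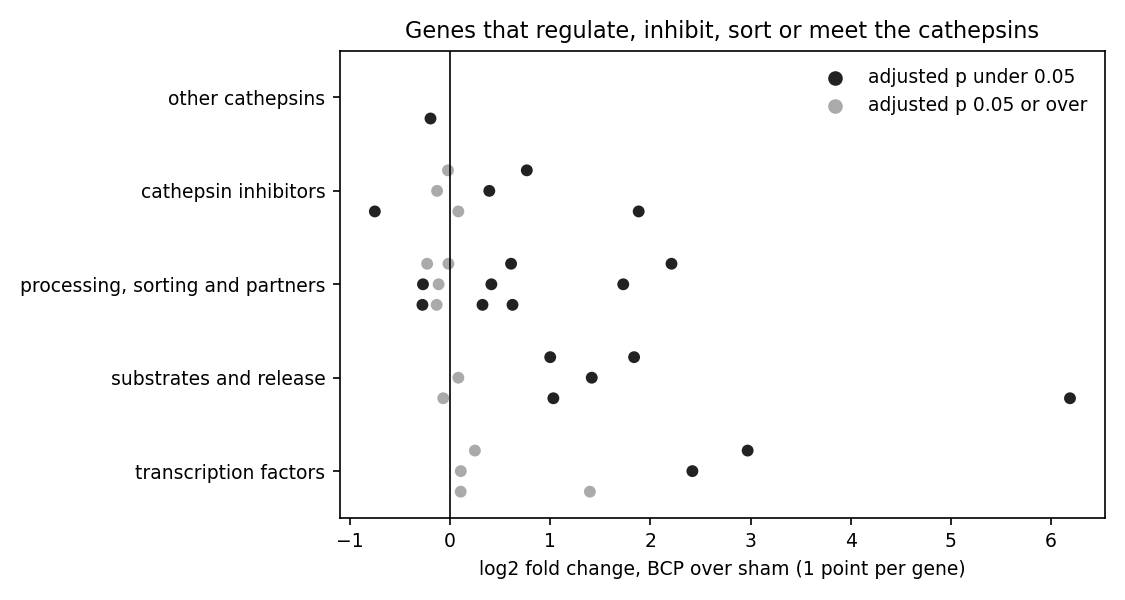
Log2 fold change, BCP over sham, of the tested genes of the 5 lists around the cathepsins, 1 point per gene, black where the adjusted p of the edgeR fit was under 0.05. Genes with 3 or fewer counts in every sham library are left out of the plot, Cd74 lies at 6.19, and the genes of processing and sorting lie from -0.27 to 2.21.

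The deposited annotation placed all 10 members in proteolysis. KEGG's Lysosome pathway held 7 of them (Ctsb, Ctsc, Ctsd, Ctse, Ctsk, Ctsl and Ctsz). Among the 104 tested genes of that pathway 36 were higher and 14 lower beside the 15.8% and 12.1% of all tested genes, with a median log2FC of 0.02. The GO term lysosome, with 8 members among 330 tested genes, had 97 higher and 44 lower.

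Of the lncRNAs deposited beside the genes, 12 lay within 10 kb of a cathepsin, near 7 members, and 7 had enough counts to be tested. None passed an adjusted p under 0.05 in edgeR's test, where 1.97% of the 12157 tested lncRNAs did, and DESeq2 called 0 as well. The share of all tested lncRNAs with an unadjusted p under 0.05 was not counted. By edgeR 2 of these 7 had such a p-value. These were NONRATT010539.2, which lies within the span of Ctsb and had 23, 21 and 21 counts in the sham and 27, 30 and 31 in the BCP group (log2FC 0.58, adjusted p = 0.357, edgeR), and NONRATT010540.2, 506 bases beyond it, with 34, 28 and 52 against 53, 69 and 44 (log2FC 0.69, adjusted p = 0.311, edgeR). NONRATT000930.2, within the span of Ctsc, had 3, 1 and 2 counts against 8, 10 and 10 and was left out by the filter. Whether the counting used strand is not given in the sources used here, so counts of a lncRNA that overlaps a gene may include reads of that gene.

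The genes whose normalized counts followed Ctss most closely over the 6 libraries were Prkcd, Recql4, Tnfaip8, Cenpm and Rab43. The measure was the root mean square distance of log2 CPM, each gene centred on its own mean, among the 14908 tested genes, and the distances were 0.0453, 0.0579, 0.0627, 0.0643 and 0.0703. No other cathepsin was among the 5. Over 6 libraries in 2 groups such a ranking mostly picks genes with a fold change of like size, here log2FC of 1.19 to 1.36 against 1.22 for Ctss.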

How the data were processed

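The study sequenced RNA of ipsilateral lumbar cord in 3 sham and 3 BCP libraries. After filtering reads with Seqtk, the authors aligned them with HISAT2 2.0.4 to the Rnor_6.0 genome, computed FPKM with StringTie 1.3.0, and deposited unnormalized counts and FPKM values per gene and per lncRNA transcript. The program behind the counts, its strand setting and its handling of multiply mapped reads are not given in the sources used here.

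Counts of the whole gene table and, separately, of the lncRNA table were fitted with edgeR 4.0.16 in R 4.3.3 (filter by expression, TMM, robust quasi-likelihood fit on the condition, Benjamini-Hochberg adjustment over all tested rows). Calls needed an adjusted p under 0.05 and, where stated, a fold change over 2. The biological coefficient of variation was 7.72% for genes. CPM are TMM-normalized. Levels of different genes were compared in FPKM only. Counting error is not the only error of a count, since PCR duplicates may have been kept.

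The members, the gene lists and the motifs were chosen with earlier results of these data known. The text names all members, measured genes of the lists, lncRNAs within 10 kb of a member and the 5 genes nearest to Ctss. Some listed genes are not reported here by name. Promoter windows came from RefSeq on GRCr8 and were not joined to coordinates of Rnor_6.0. Alternatives were DESeq2 1.42.0, limma 3.58.1 on log2(FPKM + 0.1), other normalizations and filters, edgeR's test against a fold change of 2, each library left out, and a block on replicate numbers. The code was tested on simulated data. Figures were drawn with matplotlib 3.10.9.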

Additional observations from a re-analysis of the deposited data

How the results depend on the processing

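The number of up-regulated cathepsins, 7 with an adjusted p under 0.05 and 5 of them over 2-fold, was 3 by either rule when edgeR tested against a fold change of 2 (Ctsc, Ctsz and Ctsh remained), and 6 to 8 and 5 to 5 with each library left out. Among the other genes of the cathepsin system, 22 higher and 4 lower, the test against a fold change of 2 gave 12 and 0, DESeq2 and limma on log2(FPKM + 0.1) gave 2 lower, upper-quartile normalization gave 7 lower, and leaving out each library gave 22 to 24 higher and 1 to 4 lower. The log2 ratio of Ctsl to Cst3 changed sign to 0.0324 without sham replicate 2, within a range of -0.0978 to 0.0324 over the libraries left out. Of the 150 member fold changes under the alternatives 139 stayed on their side of the threshold, 8 lost and 3 gained the call, and none changed direction.

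Over all genes, upper-quartile normalization gave 2134 higher and 2401 lower against 2352 and 1805 with TMM, and library size alone gave 2673 and 1257. The median log2FC of all genes was -0.05 and 0.03 under these scalings. Same-numbered sham and BCP libraries correlated at -0.11, 0.04 and -0.04 in their deviations from the group means. The labels do not say how the libraries were numbered, so these values do not settle whether the numbers pair the samples. With a replicate block 7 cathepsins were up-regulated and no member call changed, and 2217 genes were higher and 1597 lower. The cause of these shifts was not tested.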
